A study of Mus musculus with 8 samples.

Results

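The genes of MHC class I antigen presentation and of the immunoproteasome were followed in the RNAseq counts of FACS-sorted mG+ cells. The set was chosen by gene name and holds 10 genes: the heavy chains *H2-K1* and *H2-D1*, the light chain *B2m*, the peptide transporter subunits *Tap1* and *Tap2*, the loading factor *Tapbp*, the immunoproteasome subunits *Psmb8*, *Psmb9* and *Psmb10*, and the regulator *Nlrc5*. All 10 were found once each among the 54532 genes of the table, and all 10 were among the 16971 genes whose mean over the 8 libraries reached 10 counts. The question put to the data was at which level each gene was read by tissue and diet, and how EC-*Tert*-KO compared with WT in each pair of libraries.

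The mice were females aged 8 months that carried *Tie2e-cre* and the *mTmG* reporter, in both genotypes alike. EC-*Tert*-KO mice had both *Tert* alleles floxed (*Tert* fl/fl) and WT mice had *Tert*+/+. The reporter turns on membrane GFP (mG) in any cell in which Cre has acted and in its progeny, so the sort selects a lineage marked through the *Tie2e* promoter and not a present cell state. There were 4 pairs of libraries, each with 1 WT and 1 EC-*Tert*-KO library. In 1 pair the source was SAT (subcutaneous adipose tissue) after HFD, a high-fat diet given between the ages of 1 and 8 months, and in the others it was SAT, VAT (visceral adipose tissue) or gastrocnemius muscle of chow-fed animals. How many mice contributed to a library is not stated, and a difference within a pair describes those 2 libraries.

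Library totals lay between 6214269 and 18855772 counts. *Tert* had 114 counts in WT and 0 in EC-*Tert*-KO in SAT on HFD, 70 and 11 in the SAT chow pair and 24 and 7 in muscle. In VAT it had 3 and 9, against the label, and that library is therefore called the library labelled EC-*Tert*-KO. All 15 endothelial markers were read above 3 counts in every library, and their summed level (in CPM, read counts scaled to library size) was 418.5 to 431.1 in the SAT HFD pair and 667.7 to 827.8 in the SAT chow pair, against 2217 to 2872 for VAT and 2619 to 3120 for muscle. Markers of some blood cells had higher sums than these in each tissue. The 10 macrophage markers summed to 14550 and 14760 CPM in VAT, the 8 neutrophil markers to 13800 and 17390 in muscle, and the 10 T cell markers to 1830 to 4706 in the SAT libraries, against 257.6 to 792.4 in VAT and muscle. In these bulk libraries fewer cells of a type and less RNA per cell cannot be told apart.

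MHC class I molecules show fragments of a cell's own proteins at its surface, where T cells can read them. The proteasome cuts the proteins, TAP1 and TAP2 together carry the peptides into the endoplasmic reticulum, tapasin (the product of *Tapbp*) holds the empty heavy chain beside the transporter, and beta-2 microglobulin completes the complex. Interferon makes cells replace the constitutive catalytic subunits of the proteasome, PSMB5, PSMB6 and PSMB7, with PSMB8, PSMB9 and PSMB10, and NLRC5 is a transactivator of class I genes that acts at their promoters. Nearly all nucleated cells carry class I, endothelial cells and leukocytes included, and leukocytes tend to hold much immunoproteasome.

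The promoters are shown as a description of the genes, and *Tap1* and *Psmb9* share theirs. Whether their letters bear on any difference between the libraries was not tested. RefSeq promoters (GRCm38.p6) were given for 8 of the 10 genes, all but *Tap2* and *Nlrc5*. Below are the 250 bases upstream of the start of *H2-K1*, *H2-D1* and *B2m* and the 225 bases between the divergent starts of *Psmb9* and *Tap1*, each 5′ to 3′ on the strand of the named gene. Capitals mark matches, on either strand, to GGGANTCCC (a kappaB-type motif), GAAANNGAA (an interferon-response-type motif), TGACG (the core of a CRE-type motif) and CCAAT.
H2-K1, chr17:34000334-34000583, minus strand: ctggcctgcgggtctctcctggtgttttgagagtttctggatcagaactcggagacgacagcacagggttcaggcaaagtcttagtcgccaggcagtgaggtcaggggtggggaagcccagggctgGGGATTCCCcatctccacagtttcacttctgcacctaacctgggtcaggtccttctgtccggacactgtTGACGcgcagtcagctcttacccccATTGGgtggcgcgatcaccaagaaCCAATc
H2-D1, chr17:35262844-35263093, plus strand: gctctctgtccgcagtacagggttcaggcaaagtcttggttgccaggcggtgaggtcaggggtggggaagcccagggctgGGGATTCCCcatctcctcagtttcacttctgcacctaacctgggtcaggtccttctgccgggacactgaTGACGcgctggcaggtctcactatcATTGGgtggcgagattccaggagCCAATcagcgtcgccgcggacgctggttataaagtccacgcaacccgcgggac
B2m, chr2:122147437-122147686, plus strand: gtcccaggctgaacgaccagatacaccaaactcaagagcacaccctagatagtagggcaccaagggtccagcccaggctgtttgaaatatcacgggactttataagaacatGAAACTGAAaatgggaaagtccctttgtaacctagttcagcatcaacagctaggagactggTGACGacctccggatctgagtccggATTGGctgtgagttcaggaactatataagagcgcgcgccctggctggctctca
Tap1, chr17:34187331-34187555, plus strand: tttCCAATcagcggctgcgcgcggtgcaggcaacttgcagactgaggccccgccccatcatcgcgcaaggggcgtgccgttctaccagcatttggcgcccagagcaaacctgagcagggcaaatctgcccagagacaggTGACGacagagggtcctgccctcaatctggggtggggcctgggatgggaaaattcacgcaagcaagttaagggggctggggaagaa

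GGGANTCCC was found in *H2-K1* and *H2-D1*, at 124 to 116 and 170 to 162 bases before the start, and in 0.636% of all 32851 promoter windows of this length. In both genes it was followed by TGACG and then by ATTGG, which is CCAAT on the other strand. The exact string GAAANNGAA was found in *B2m* alone of the 8 genes and in 7.13% of all windows. Other forms of an interferon-response element were not searched for, so a window without this string may still hold one. TGACG was present in 5 of the 8 genes, namely *H2-K1*, *H2-D1*, *B2m*, *Tap1* and *Psmb9*, and in 17.8% of windows, and CCAAT in 6, these and *Tapbp*, and in 33.8%. The marked matches in the printed windows do not overlap each other. The starts of *Tap1* and *Psmb9* lie 226 bases apart, so that the TGACG of one is the CGTCA of the other. None of the 4 motifs was found upstream of *Psmb8* or *Psmb10*. These matches describe letters in a window and were not tested for binding.

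Of the 10 genes, 7 lie on chromosome 17. *H2-K1* (33996017 to 34000333), *Tapbp* (33915899 to 33929288), *Psmb9* (34181988 to 34187764), *Tap1* (34187553 to 34197225), *Psmb8* (34197721 to 34201454) and *Tap2* (34203527 to 34216321) stand close together, with *H2-D1* (35262730 to 35267499) further along, all in GRCm38. *B2m* is on chromosome 2 (122147686 to 122153083), and *Psmb10* (105935735 to 105938444) and *Nlrc5* (94434356 to 94527272) are on chromosome 8.

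The class I molecule itself was among the most abundant messages. *H2-K1*, *H2-D1* and *B2m* ranked 18, 21 and 25 of all genes by mean CPM and made up 82.7% to 88.7% of the summed CPM of the 10 genes. That sum was 4586 CPM in the muscle EC-*Tert*-KO library and 13450 CPM in the SAT chow WT library, and 6544 to 7769 CPM in the other 6. Per kilobase of the listed gene length, the mean level was 2269 for *B2m*, 896.5 for *H2-K1* and 865.6 for *H2-D1*. The peptide loading genes were far below them, with 80.57 for *Tapbp*, 38.73 for *Tap1* and 29.26 for *Tap2*. The immunoproteasome subunits *Psmb10*, *Psmb8* and *Psmb9* had 51.76, 43.78 and 21.56 per kilobase, and their constitutive counterparts *Psmb7*, *Psmb5* and *Psmb6* had 10.41, 44.08 and 33.22. *Nlrc5* had 25.87.

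**Figure D1:**
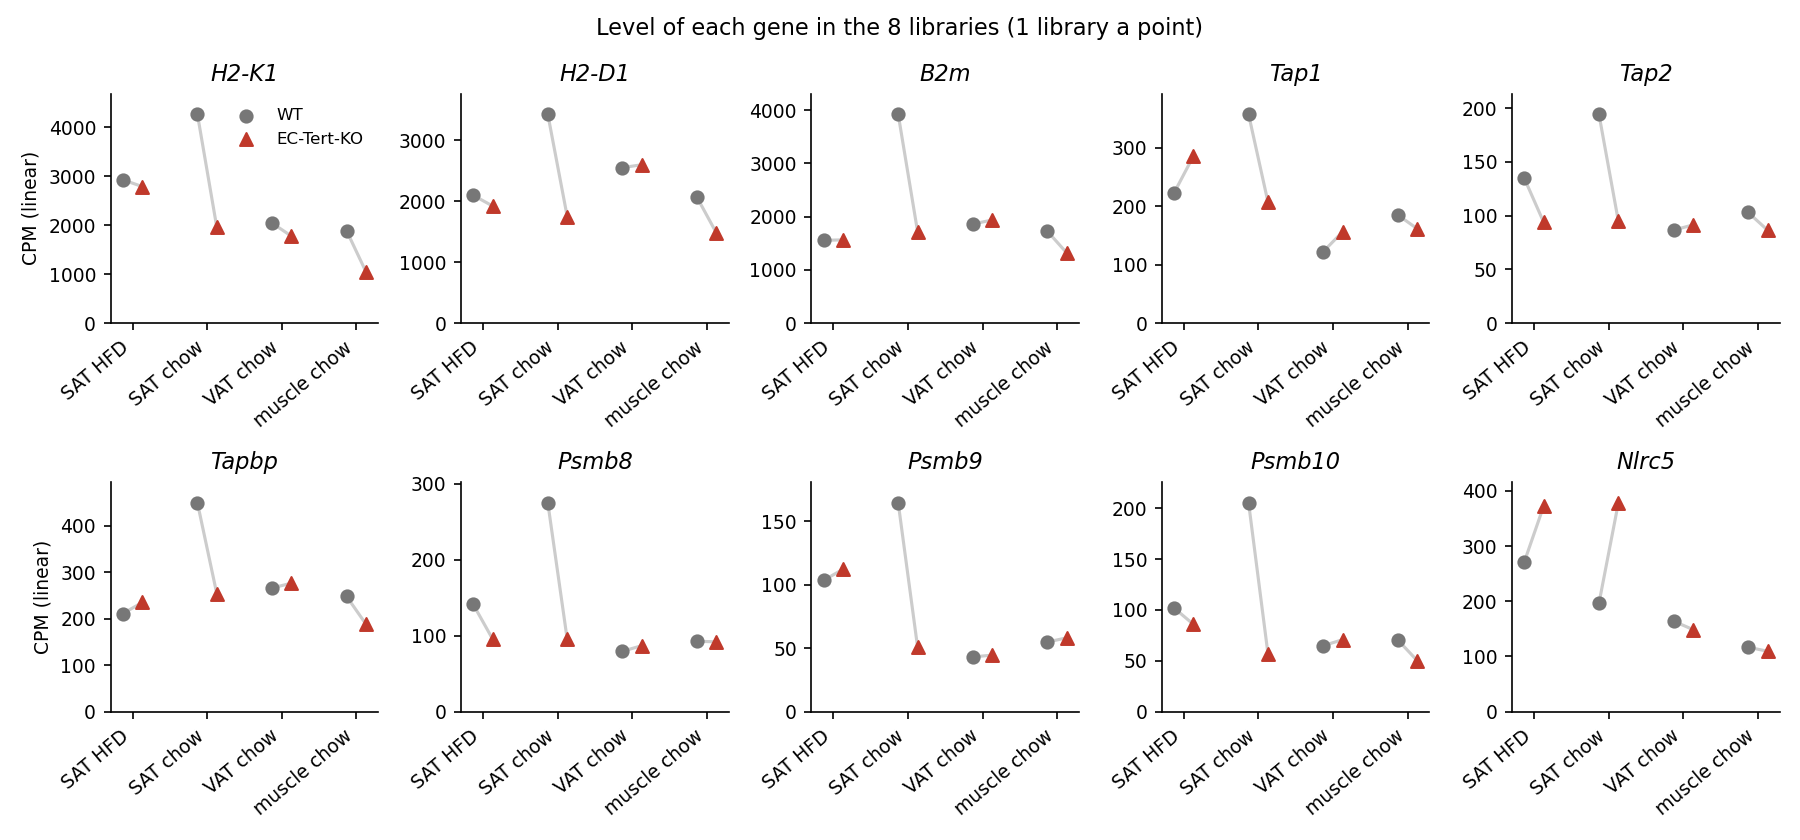
Level of each of the 10 genes in CPM (linear axis from 0) in the 8 libraries, with 1 WT and 1 EC-*Tert*-KO library for each tissue and diet on the x axis and a line joining the 2 libraries of a pair. The SAT chow WT library has the highest point for 9 genes, and the EC-*Tert*-KO library of the same tissue has the highest for *Nlrc5*.

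A single library stood above the others. The SAT chow WT library had the highest level of 9 of the 10 genes, and the exception was *Nlrc5*, highest in the SAT chow EC-*Tert*-KO library. The lowest level was in the muscle EC-*Tert*-KO library for 7 genes and in the VAT WT library for *Tap1*, *Psmb8* and *Psmb9*. Between the highest and the lowest library the genes differed by 2.245-fold (*Tap2*) to 4.09-fold (*Psmb10*).

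*H2-K1*, a classical heavy chain, was read at 2931 CPM in WT and 2793 in EC-*Tert*-KO in SAT on HFD, at 4268 and 1956 in SAT of chow-fed mice, at 2047 and 1778 in VAT, and at 1886 and 1046 in muscle. Both SAT HFD libraries lay above all 4 VAT and muscle libraries, while the 2 SAT chow libraries differed more than the libraries of any other pair. *H2-D1*, the other classical heavy chain of the set, was at 2095 and 1919 CPM in SAT on HFD, 3420 and 1746 in SAT of chow-fed mice, 2548 and 2595 in VAT, and 2060 and 1476 in muscle, so that only SAT chow WT lay above its VAT libraries. For *B2m*, the shared light chain, the values were 1556 and 1565, 3923 and 1719, 1864 and 1937, and 1727 and 1317 CPM in the same order. Without SAT chow WT, the *B2m* libraries kept within 1317 to 1937 CPM.

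The transporter genes had higher mean levels in SAT, on either diet, than in VAT or muscle. *Tap1* was at 222.4 and 285.5 CPM in SAT on HFD, 357.0 and 207.0 in SAT of chow-fed mice, 122.2 and 156.3 in VAT, and 185.0 and 161.5 in muscle, with all 4 SAT libraries above all 4 others. *Tap2*, its partner in the heterodimer, ranged from 86.52 to 194.3 CPM, and its SAT HFD, VAT and muscle ranges overlapped from one neighbour to the next. *Tapbp* ranged from 187.7 to 448.7 CPM and had the order of *H2-D1* and *B2m* by mean, SAT chow, VAT, SAT HFD and muscle, where only the step from VAT to SAT HFD was free of overlap.

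The immunoproteasome subunits had lower mean levels in VAT and muscle than in SAT. *Psmb8*, which replaces PSMB5, was at 141.3 and 95.63 CPM in SAT on HFD, 275.0 and 95.28 in SAT of chow-fed mice, 79.5 and 86.93 in VAT, and 92.61 and 92.03 in muscle. *Psmb9*, which replaces PSMB6, was at 103.4 and 112.1, 164.4 and 50.75, 43.11 and 44.5, and 54.85 and 58.12 CPM in the same order. For both, VAT and muscle did not overlap, with muscle slightly higher, and the SAT chow EC-*Tert*-KO library lay above muscle for *Psmb8* and between VAT and muscle for *Psmb9*. *Psmb10*, which replaces PSMB7, was at 102.0 and 85.81, 205.2 and 56.71, 64.83 and 70.73, and 70.49 and 50.15 CPM, with VAT and muscle overlapping.

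*Nlrc5*, the regulator, was ordered by tissue without overlap. It was read at 271.5 and 372.9 CPM in SAT on HFD, 196.4 and 378.1 in SAT of chow-fed mice, 163.9 and 148.7 in VAT, and 116.7 and 109.4 in muscle. All 4 SAT libraries lay above VAT and both VAT libraries above muscle, with no overlap between the tissues, whereas the 2 diets overlapped in SAT.

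The differences between tissues and diets were tested with edgeR's quasi-likelihood test with genotype as a second term, over all 16971 genes with Benjamini-Hochberg adjustment. This sets 1 WT and 1 EC-*Tert*-KO library of a tissue against those of another, so the p-values measure only the spread between these libraries. None of the 10 genes had an adjusted p under 0.05 in the test for any difference among the 4 tissue and diet groups, where 7.83% of all genes were called, and 1 had an unadjusted p under 0.05. That was *Nlrc5*, with an unadjusted p = 0.0121 and an edgeR adjusted p = 0.0986. For the others the adjusted p in this edgeR test ran from 0.278 (*Psmb9*) to 0.744 (*H2-D1*).

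Between muscle and SAT on chow, 1.26% of all genes were called and 0 of the 10, although all 10 had lower values in muscle, with a median log2 difference of -0.84 against -0.09 over all genes. *Nlrc5* differed by -1.29 (SE 0.366, edgeR adjusted p = 0.174) and *H2-K1* by -1.06 (SE 0.432, edgeR adjusted p = 0.394), the 2 genes with an unadjusted p under 0.05. Both were called by DESeq2's Wald test, with adjusted p of 0.0134 and 0.0498, which called 1014 genes in all against 213.

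Between VAT and SAT on chow, 5.05% of all genes were called and again 0 of the 10. The 10 genes had a median log2 difference of -0.69, against -0.08 over all genes, and 9 had lower values in VAT. *Tap1* (-1.01, SE 0.373), *Psmb8* (-1.02, SE 0.431) and *Psmb9* (-1.20, SE 0.483) had unadjusted p under 0.05 and edgeR adjusted p of 0.183, 0.236 and 0.215. *H2-D1*, at 0.06 (SE 0.416), was the one gene with a higher value in VAT. DESeq2 called 0 of the 10 in this comparison, with 4 at an unadjusted p under 0.05.

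Between muscle and VAT, 1.93% of all genes were called, and between SAT on HFD and SAT on chow 0.0%. In neither was any of the 10 called by edgeR or by DESeq2, and by edgeR 0 of the 10 had an unadjusted p under 0.05 in either, while 1 had one by DESeq2 between the diets. Muscle and VAT differed by a median of -0.28, with 6 genes lower and 4 higher in muscle, and the 4 were *Psmb9*, *Tap1*, *Psmb8* and *Tap2*. Between the diets the median was -0.31, against -0.24 over all genes, and 8 of the 10 had lower values on HFD. That count was 6 under each of the 3 other scalings, as *H2-K1* and *Tap1* changed sign.

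Leaving out a SAT chow library changed these counts. Without the SAT chow EC-*Tert*-KO library, 5 of the 10 genes were called among the 4 groups, 5 between VAT and SAT on chow and 6 between muscle and SAT on chow. *Psmb9* then differed between VAT and SAT on chow by -1.95 (edgeR adjusted p = 0.00429), and without SAT chow WT by -0.11 (edgeR adjusted p = 0.901). For *Psmb8* the difference was -1.64 or -0.21, and for *Tap1* -1.45 or -0.44, without the one or the other. Of *H2-K1* between muscle and SAT on chow it was -1.39 or -0.58, and of *Nlrc5* -0.83 or -1.64. The number of all genes called without SAT chow EC-*Tert*-KO also grew, from 1328 to 3896 among the 4 groups, from 857 to 3449 for VAT against SAT on chow and from 213 to 1761 between muscle and SAT on chow. Without SAT chow WT instead, 2 of the 10 were called among the 4 groups, 0 between VAT and SAT on chow and 1, *Nlrc5*, between muscle and SAT on chow, where 2510, 844 and 285 of all genes were called. In the SAT chow comparison one library is then left, which is assumed to vary like the other groups.

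The 2 classical heavy chains differed in balance by tissue. The ratio of *H2-K1* to *H2-D1* counts within a library needs no scaling, and it was 1.399 and 1.456 in SAT on HFD, 1.248 and 1.12 in SAT of chow-fed mice, 0.8033 and 0.6851 in VAT, and 0.9158 and 0.7087 in muscle (WT, then EC-*Tert*-KO). It lay above 1 in 4 of 4 SAT libraries and below 1 in the 4 others, with counting intervals that excluded 1 in all 8. In the 3 chow pairs it was lower in the library labelled EC-*Tert*-KO, by a log2 difference of -0.16 (95% counting interval -0.18 to -0.13) in SAT, -0.23 (-0.27 to -0.19) in VAT and -0.37 (-0.41 to -0.33) in muscle, and on HFD it was higher by 0.06 (0.02 to 0.10). This pattern was picked out after its values were seen and carries no test. Both genes share sequence with other class I genes. Of the 50-base stretches in its GENCODE M21 transcripts, *H2-K1* shares 9.63% with other genes and *H2-D1* 12.8%, and of 100-base stretches 0.957% and 3.59%, so part of this balance may depend on how the counting treated reads with several matches, which is not given in the sources used here.

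**Figure D2:**
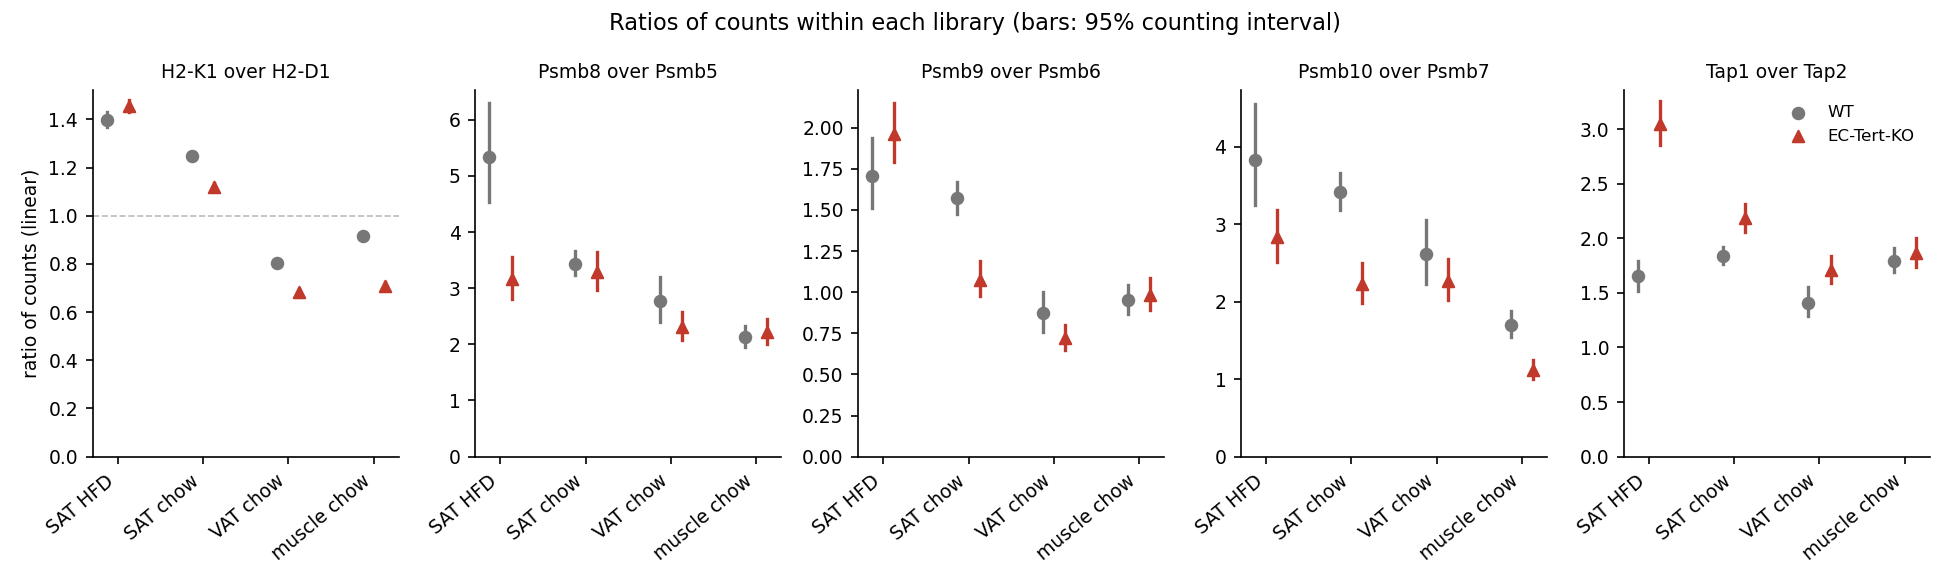
Ratio of the counts of 2 genes within each library (linear axis from 0), for the heavy chains, for each immunoproteasome subunit over the constitutive subunit it replaces, and for the transporter subunits. Points are libraries and bars 95% counting intervals, and the dashed line in the first panel is a ratio of 1, above which all 4 SAT libraries lie and below which the 4 others do.

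EC-*Tert*-KO was compared with WT within each pair as the log2 ratio of CPM, with an exact 95% interval that covers counting error only. With 1 library per genotype there is no test. The clearest difference was in SAT on chow, where 9 of the 10 genes were lower in EC-*Tert*-KO and *Nlrc5* was higher. The 6 genes *H2-K1*, *B2m*, *Tap2*, *Psmb8*, *Psmb9* and *Psmb10* were lower by more than 2-fold, in a pair where 19.2% of 16908 genes were lower and 26.0% higher by that much.

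In this pair *Psmb10* was lowest, 3.62-fold below WT (log2 -1.85, interval -1.96 to -1.75), with 3394 counts in WT and 941 in EC-*Tert*-KO. *Psmb9* was 3.24-fold lower (-1.70, -1.81 to -1.58) and *Psmb8* 2.885-fold lower (-1.53, -1.61 to -1.45), so the 3 immunoproteasome subunits had the lowest ratios of the set. The chains of the class I molecule were lower by about the same amount as each other, *B2m* at -1.19 (-1.21 to -1.17), *H2-K1* at -1.13 (-1.15 to -1.11) and *H2-D1* at -0.97 (-0.99 to -0.95). The peptide supply genes *Tap2* (-1.03), *Tapbp* (-0.83) and *Tap1* (-0.79) followed. *Nlrc5* was 1.925-fold higher (0.94, 0.88 to 1.01), from 3249 to 6273 counts, and per 1000 counts of the 9 other genes it went from 14.82 to 61.2.

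**Figure D3:**
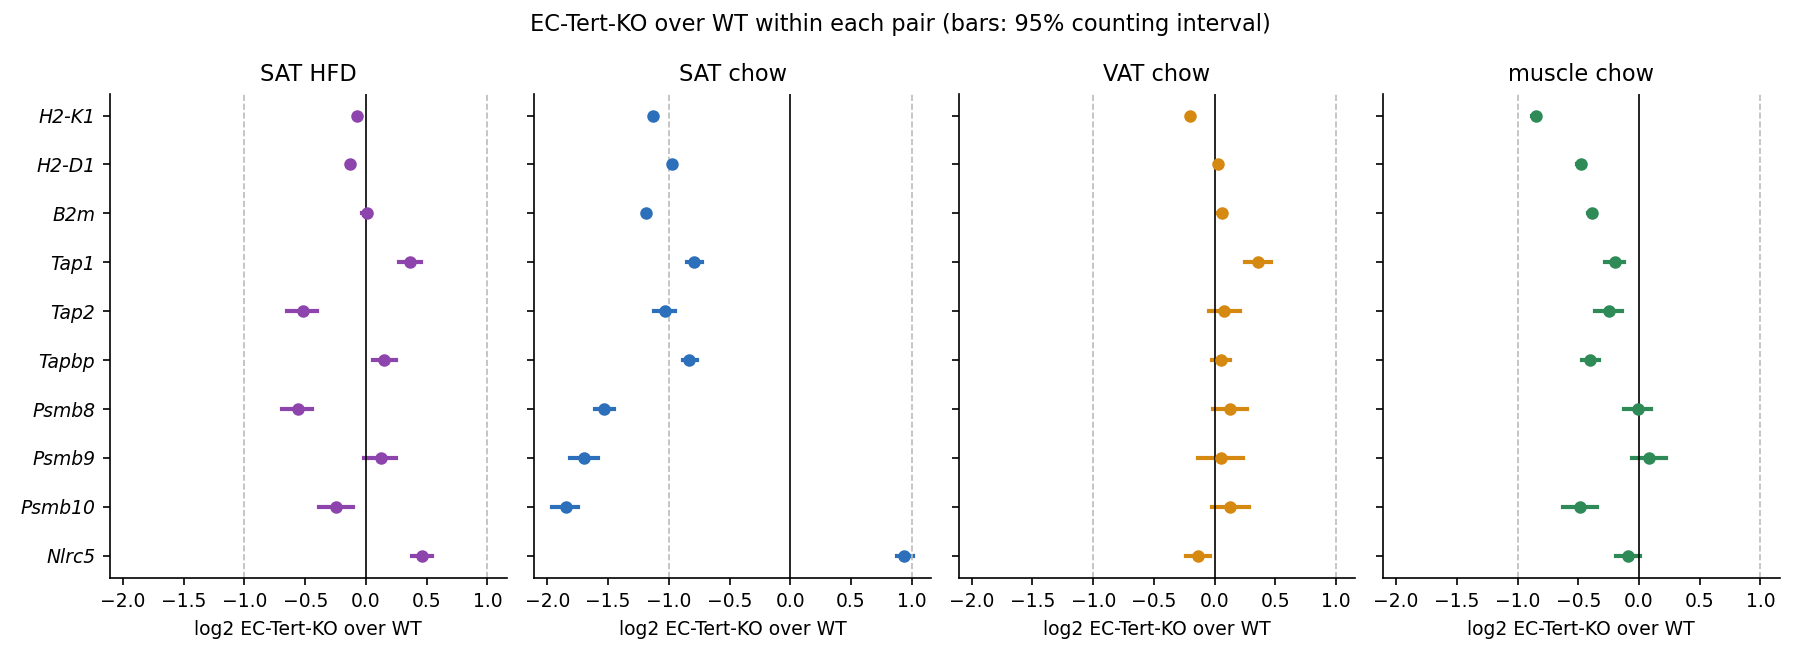
Log2 ratio of EC-*Tert*-KO to WT for each of the 10 genes in the 4 pairs, with 95% counting intervals as bars, and dashed lines at 2-fold. In SAT on chow the points run from -1.85 to 0.94, with 9 of 10 below 0, while in the other pairs no point reaches 2-fold.

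Other measures moved in the same pair. The ratio depended on gene length: the median log2 ratio was -0.36 in the shortest 10% of genes and 0.86 in the longest 10%, against -0.13 and 0.05 in SAT on HFD, 0.16 and -0.14 in VAT, and -0.14 and -0.00 in muscle. *Malat1*, a nuclear RNA, was at 291.8 CPM in WT and 5836 in EC-*Tert*-KO, a log2 ratio of 4.32. The libraries of the other pairs had 2149 to 5398 CPM, so the WT library was the one that stood apart. All 10 T cell markers were lower in EC-*Tert*-KO, with a sum of 4706 CPM in WT and 1830 in EC-*Tert*-KO, 9 of 10 macrophage markers were lower (2095 and 865.6 CPM), and 9 of 10 stromal markers were higher (953.0 and 3508 CPM). NK cell and neutrophil markers were each lower in 7 of 7 cases, with median log2 ratios of -1.14 and -1.99. Mural markers were higher in 7 of 8 (median 2.0) and endothelial markers in 11 of 15 (median 0.40). None of the T cell, macrophage or stromal markers was at 0 in either library. The part of these measures in the result was not tested.

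With the length trend removed, a step chosen after seeing the data, the 9 genes stayed lower in EC-*Tert*-KO and the median of the 10 went from -1.08 to -0.75. *Psmb9* (-1.50), *Psmb10* (-1.17) and *Psmb8* (-1.08) were still the 3 with the lowest values, *H2-K1* had -0.77, *B2m* -0.68 and *H2-D1* -0.62. *Nlrc5*, at 8493 bases the longest gene of the set, went from 0.94 to 0.45, and *Tap1*, the next longest at 5476 bases, from -0.79 to -0.86. The other scalings raised all values of this pair by 0.10 to 0.23 and left the count at 9 lower of 10.

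**Figure D4:**
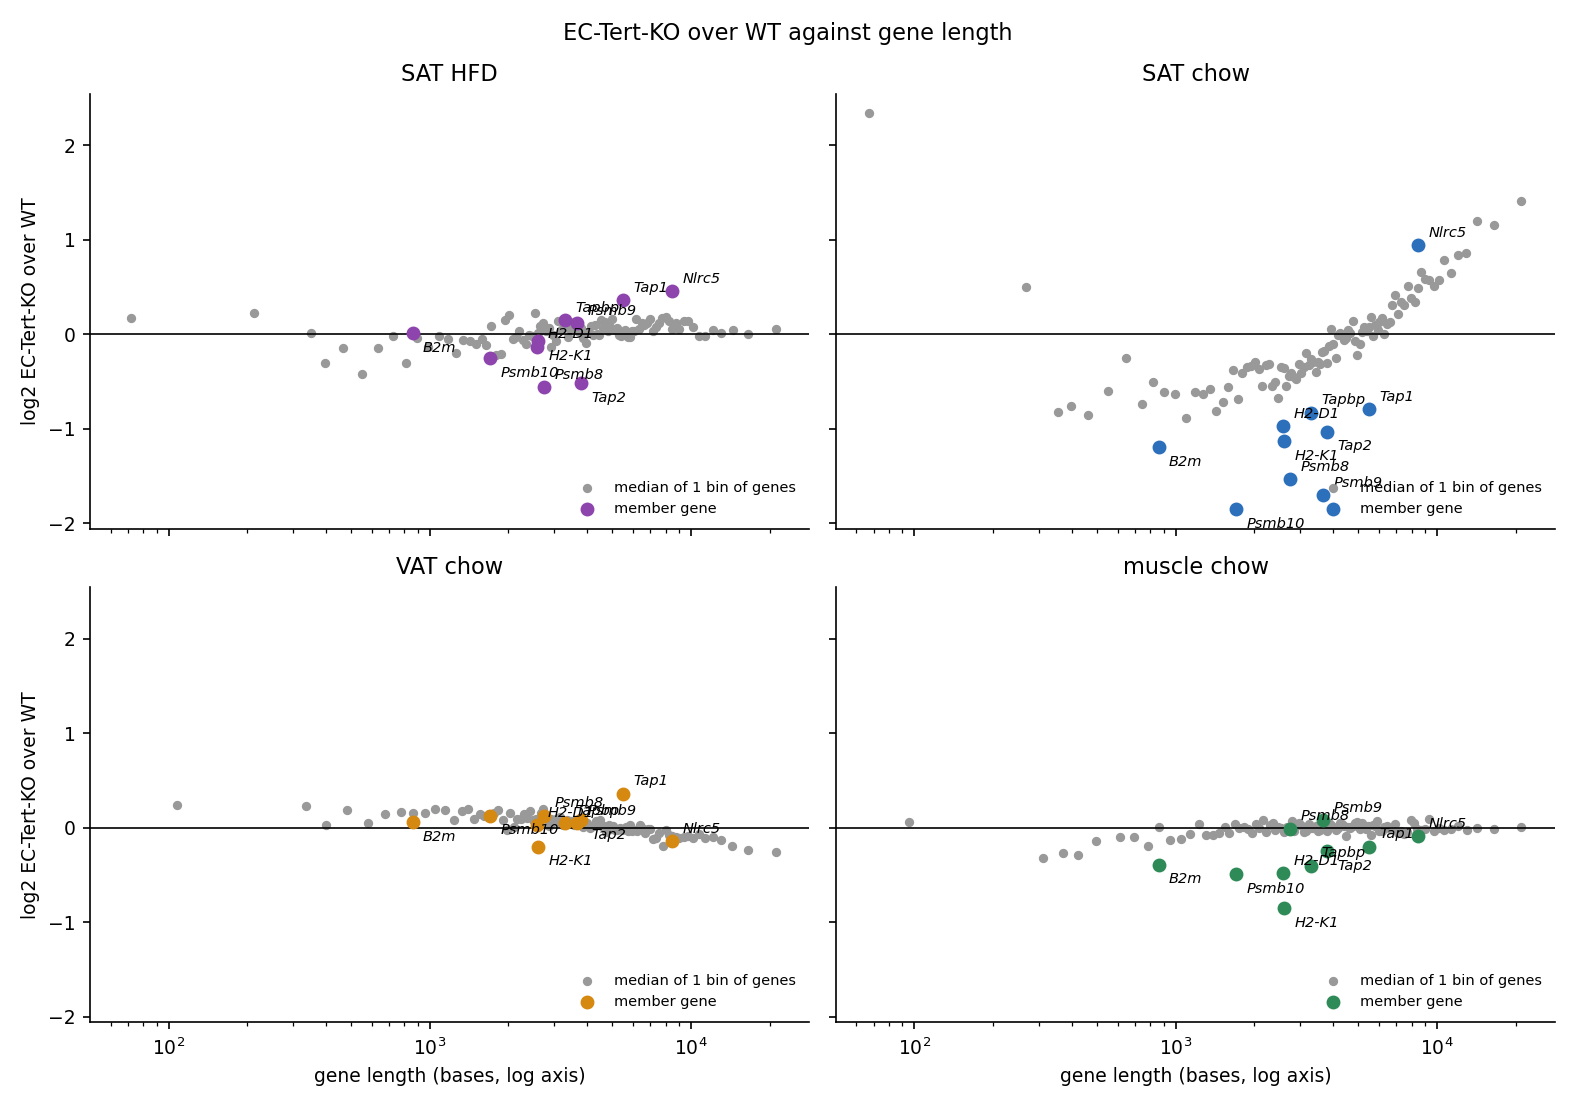
Log2 ratio of EC-*Tert*-KO to WT against gene length in bases (log axis) in the 4 pairs, with the 10 genes in colour and the median of each of 100 bins of genes in grey. In SAT on chow the grey points at 67 and 267 bases lie high, at 2.339 and 0.5026. From 353 bases on the grey points climb with length, and 9 genes lie below them with *Nlrc5* above. In the other pairs the trend is small.

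In SAT on HFD no gene of the set reached 2-fold, where 16.6% of 15839 genes were lower and 17.8% higher by that much. *Nlrc5* (0.46, interval 0.38 to 0.54) and *Tap1* (0.36, 0.27 to 0.45) were higher in EC-*Tert*-KO, with *Tapbp* at 0.15, and *Psmb8* (-0.56, -0.69 to -0.44) and *Tap2* (-0.52, -0.65 to -0.40) were lower, with *Psmb10* at -0.25. The subunits of the transporter thus stood on opposite sides, and the count ratio of *Tap1* to *Tap2* went from 1.651 to 3.046. *H2-K1* (-0.07), *H2-D1* (-0.13) and *B2m* (0.01) were near 0, and the sign of *H2-K1* turned with library totals as the scaling (0.02). The median of the 10 genes was -0.03, against 0.04 over all genes. Of the macrophage markers, 9 of 10 were lower in EC-*Tert*-KO (734.2 and 422.2 CPM in sum), and their part in the result was not tested.

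In muscle 9 of the 10 genes were lower in EC-*Tert*-KO, 7 of them with intervals below 0, and 0 beyond 2-fold, against 6.16% of 16967 genes lower and 8.75% higher by that much. *H2-K1* was lowest, at -0.85 (-0.88 to -0.82), from 31121 to 14440 counts. *Psmb10* (-0.49), *H2-D1* (-0.48), *Tapbp* (-0.40) and *B2m* (-0.39) came next, and *Psmb9* (0.08) and *Psmb8* (-0.01) had intervals that spanned 0. With library totals as the scaling 7 of 10 were lower, as *Psmb8* and *Nlrc5* changed sign. The median was -0.32, against -0.01 over all genes, and -0.31 after the length step. Under library totals it was -0.15, against 0.16 over all genes. Macrophage markers were lower in 8 of 10 cases in this pair, with a median log2 ratio of -0.91. Their sums were 5466 and 5230 CPM, of which *Lyz2* alone made up 4757 and 4890. T cell markers were lower in 9 of 10 (792.4 and 550.7), while stromal markers were higher in 10 of 10 (944.4 and 1673). The part of these markers in the result was not tested.

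In VAT the 10 genes differed by at most 1.28-fold (*Tap1*). The library labelled EC-*Tert*-KO had 8 of 10 genes at higher values, but 5 intervals spanned 0 and none was beyond 2-fold, against 6.81% of 16439 genes lower and 8.21% higher. *Tap1* was at 0.36 (0.25 to 0.46) and *H2-K1* at -0.20 (-0.23 to -0.18). The other 8 lay between -0.14 (*Nlrc5*) and 0.13, with *H2-D1* at 0.03, a sign that turned with DESeq2's size factors. With the length trend removed, *Tap1* (0.38) and *Tap2* (0.05) had higher values and the median of the 10 went from 0.06 to -0.03. Mural markers were higher in 8 of 8 cases (170.6 and 701.4 CPM in sum) and stromal markers in 10 of 10 (1270 and 2546), while muscle markers were lower (129.8 and 8.767, with *Myh1*, *Pax7* and *Myod1* at 0 in the library labelled EC-*Tert*-KO). T cell markers were higher in 10 of 10 (257.6 and 355.8), and endothelial markers were lower in 13 of 15 (2872 and 2217). Their part in the result was not tested.

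With tissue and diet as a block, the edgeR test of genotype over all 4 pairs called 0 of the 10 genes, where it called 0.00589% of all genes, 1 of 16971. None of the 10 had an unadjusted p under 0.05 either, and by DESeq2's Wald test 0 were called and 1 had an unadjusted p under 0.05. The median log2 difference of the 10 genes was -0.38, against 0.02 over all genes, with 9 below 0. *Psmb10* had -0.61 (SE 0.334) and *H2-K1* -0.56 (SE 0.307), with unadjusted p of 0.108 and 0.104 by edgeR and Benjamini-Hochberg adjusted p of 1, and *Nlrc5* had 0.29 (SE 0.256). Without the SAT chow pair these values were -0.20, -0.37 and 0.08. *H2-K1* was the only gene lower in 4 of 4 pairs, and with library totals as the scaling it was lower in the 3 chow pairs. *H2-D1*, *Tap2*, *Psmb8* and *Psmb10* were lower in 3 pairs. Since each pair is another tissue or diet, the pairs do not replicate 1 condition.

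The immunoproteasome was set against the constitutive subunits it replaces, within each library. *Psmb8* over *Psmb5* was 5.335 and 3.162 in SAT on HFD (WT, then EC-*Tert*-KO), 3.435 and 3.287 in SAT of chow-fed mice, 2.763 and 2.314 in VAT, and 2.134 and 2.216 in muscle. *Psmb9* over *Psmb6* was 1.709 and 1.964, 1.57 and 1.077, 0.873 and 0.719, and 0.9506 and 0.984 in the same order. *Psmb10* over *Psmb7* was 3.831 and 2.83, 3.411 and 2.225, 2.608 and 2.27, and 1.703 and 1.116. For *Psmb8* and *Psmb9* all 4 SAT libraries lay above the VAT and muscle libraries, and for *Psmb10* the SAT chow EC-*Tert*-KO library fell below both VAT libraries.

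Further ratios within a library, none of them tested, differed by diet or tissue. *B2m* over the sum of *H2-K1* and *H2-D1* was 0.3097 and 0.3322 in SAT on HFD and 0.4057 to 0.5222 in the 6 other libraries. *Psme1* and *Psme2*, the interferon-inducible activator of the proteasome, over the 11 other core subunits gave 0.3338 to 0.3686 in SAT, 0.2416 and 0.2488 in VAT, and 0.2615 and 0.1923 in muscle. The sum of the 3 immunoproteasome subunits over the same 11 gave 0.4658 and 0.4782 in SAT on HFD, 0.4343 and 0.3152 in SAT of chow-fed mice, 0.313 and 0.2835 in VAT, and 0.2572 and 0.2694 in muscle.

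The change of the subunit ratios from WT to EC-*Tert*-KO was not the same for the 3 subunits. In SAT on chow *Psmb8* over *Psmb5* differed by -0.06 on the log2 scale (interval -0.24 to 0.11), since *Psmb5* itself was lower by -1.46, while *Psmb9* over *Psmb6* differed by -0.54 (-0.71 to -0.38) and *Psmb10* over *Psmb7* by -0.62 (-0.81 to -0.42). In SAT on HFD the *Psmb8* ratio was lower by -0.75 (-1.04 to -0.47) and that of *Psmb9* was at 0.20 (-0.02 to 0.42). In muscle that of *Psmb10* alone was off 0, at -0.61 (-0.82 to -0.40). *Psmb10* over *Psmb7* was lower in 4 of 4 pairs, with an interval that spanned 0 in VAT. *Psmb10* (1705 bases) and *Psmb7* (3421 bases) differ in length, which in SAT on chow goes with a difference in ratio of its own.

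The rest of the pathway was described by 7 lists of partner genes. In SAT on chow the whole 20S core of the proteasome was lower in EC-*Tert*-KO: 3 of 3 constitutive catalytic subunits (*Psmb5* -1.46, *Psmb7* -1.24, *Psmb6* -1.15) and 11 of 11 other core subunits, with a median of -1.20, or -0.87 with the length trend removed. The activator and assembly genes were lower in 4 of 4 cases, with a median of -1.18, or -0.82 with the length trend removed. The genes of peptide loading and trimming were lower in 5 of 5, with a median of -0.54, or -0.25 after that step. The regulators were lower in 8 of 12, with a median of -0.59, or -0.54 with the length trend removed, and ran from -1.31 to 0.46. *Ciita*, the class II counterpart of NLRC5, was at -0.54. Among the 4 that were not lower were *Irf1*, a transcription factor of the interferon response, at 0.27 and *Rfx5*, a subunit of the promoter-bound RFX complex, at 0.01. Of the 8 genes for the interferon ligand, receptors and kinases, 4 were higher and 4 lower (median 0.26, or 0.55 with the length trend removed).

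**Figure D5:**
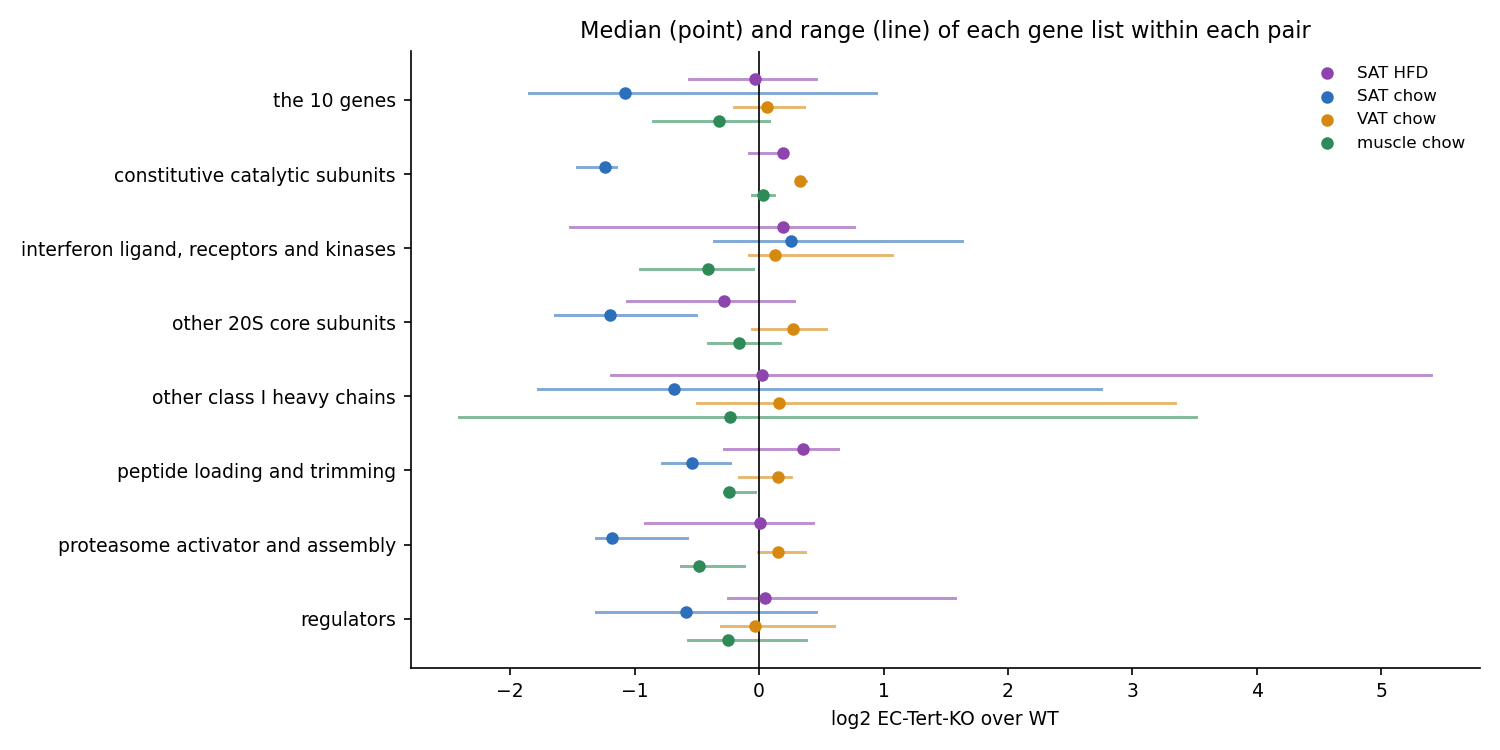
Log2 ratio of EC-*Tert*-KO to WT for the 10 genes and the 7 lists of partners in the 4 pairs, with the median as a point and the lowest and highest gene of the list as the ends of a line. In SAT on chow the medians of the proteasome lists lie near -1.2 beside -1.08 for the 10 genes, and in the other pairs all medians lie between -0.48 and 0.35.

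In the other pairs the proteasome lists had medians nearer 0. The 11 other core subunits had medians of -0.28 in SAT on HFD, 0.27 in VAT and -0.16 in muscle, and the activator and assembly genes -0.48 in muscle, where 4 of 4 were lower. The interferon ligand, receptors and kinases were lower in 8 of 8 cases in muscle, from -0.96 to -0.05 with a median of -0.41, and had medians of 0.19 in SAT on HFD and 0.13 in VAT. The regulators as a list had medians of 0.05 in SAT on HFD, -0.03 in VAT and -0.25 in muscle. Among them, *Rfx5* was higher in 4 of 4 pairs. It was at 1.57 in SAT on HFD, 0.01 in SAT on chow with an interval that spanned 0, 0.60 in VAT and 0.38 in muscle. *Ciita* was at 0.14, -0.54, -0.17 and -0.36 in the same order. None of the partner genes was called between the genotypes across the pairs by edgeR. *H2-Q1*, another class I heavy chain, had few counts in WT and more in each library labelled EC-*Tert*-KO. These were 0 and 27, 16 and 111, 4 and 67, and 6 and 62 in the same order. Of the 16 other heavy chains tested across the pairs, 5 had higher and 11 lower values in EC-*Tert*-KO.

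Of the 59 partner genes tested, edgeR with Benjamini-Hochberg adjustment called 3 among the 4 groups and 3 between VAT and SAT on chow (5.08% in both, where 7.83% and 5.05% of all genes were called), and 1 between muscle and VAT (1.69%, against 1.93%). These shares are near or below those of all genes. In all 4 genes were called. *Fcgrt*, the heavy chain of the neonatal Fc receptor, was read at 385.0 and 506.8 CPM in VAT and at 45.44 to 86.52 in the 6 other libraries. It rose in VAT over SAT on chow (2.72, SE 0.360, edgeR adjusted p = 0.01) and was lower in muscle than in VAT (-3.19, SE 0.366, edgeR adjusted p = 0.00763). *H2-T10*, a nonclassical heavy chain, fell in VAT against SAT on chow by 1.91 on the log2 scale (SE 0.331, edgeR adjusted p = 0.0192), from 80.05 and 49.06 to 17.02 and 16.72 CPM. *H2-M2*, a further class I gene, fell by 4.54 (SE 1.02, edgeR adjusted p = 0.0453), from 45.28 and 23.63 to 1.679 and 1.179 CPM. *Psma5*, a core subunit of the proteasome, was called among the 4 groups (edgeR adjusted p = 0.0277), with 6.772 and 8.233 CPM in SAT on HFD and 27.32 to 48.07 elsewhere. Related class I genes can share reads, so *H2-T10* and *H2-M2* are uncertain to that extent.

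These calls rested on few libraries. Without the VAT library labelled EC-*Tert*-KO, the edgeR adjusted p was 0.0633 and 0.0698 for the 2 differences of *Fcgrt*, 0.144 for *H2-T10* and 0.233 for *H2-M2*, and without VAT WT it was 0.226 for *H2-T10* and 0.291 for *H2-M2*. That of *Fcgrt* between muscle and VAT was 0.0663 without muscle WT and 0.0992 without muscle EC-*Tert*-KO, and that of *H2-M2* was 0.146 without SAT chow WT, 0.0514 with DESeq2's size factors and 0.0503 with library totals. For *Psma5* it was 0.0739 to 0.144 without any one of the SAT HFD, VAT or muscle libraries.

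The genes whose level ran most like the mean of the 10 over the 8 libraries were ranked by Pearson correlation of log2 CPM, as a description, among the 12358 other genes whose mean reached 50 counts. They were *Prpsap1* (0.992), *Anxa6* (0.989), *mt-Nd1* (0.983), *mt-Cytb* and *Mrpl24* (both 0.979), *Selplg* (0.978), *Ppp1r11* (0.972), *Tpt1* (0.971), *Cbr1* (0.967) and *Esyt1* (0.966). All 10 had their highest level in SAT chow WT, as *Anxa6* with 916.7 CPM there and 193.1 to 403.9 elsewhere, and the libraries share this one high point. Of the set itself, *Psmb10* ran closest to the mean (0.974) and *Nlrc5* least so (0.359).

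Some gene models overlap, and whether the counting used strand is not given, so reads there cannot be assigned with certainty. *Tap1* and *Psmb9* overlap over 212 bases on opposite strands, and they had 22917 and 8360 counts in all. *Tapbp* overlaps *Zbtb22*, on the same strand, over 3421 bases, with 28782 and 2424 counts. *Nlrc5* had 22953 counts beside 760 for *9330175E14Rik*, and for *B2m*, *Tap2*, *Psmb8* and *Psmb10* the overlapping models held 17 to 144 counts each. *Tapbp* also shared the largest part of its 50-base stretches with other genes, 23.2%, while *B2m* and *Psmb10* shared 0.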

How the data were processed

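The authors deposited a table of raw read counts per Ensembl gene, with a column for each of the 8 libraries, made per the labels from FACS-sorted GFP+ cells with a SMARTER mRNA kit. The submitters' processing notes name HISAT2 2.0.5 and GRCm38 (mm10). The counting program, read length and use of strand are not given in the sources used here. The 10 genes and the lists were chosen with earlier results of these data known.

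Libraries were scaled by TMM, with factors from genes whose mean count reached 10. Groups were tested with edgeR 4.0.16 (quasi-likelihood, robust, terms for tissue with diet and for genotype, 3 residual degrees of freedom) over 16971 genes, with Benjamini-Hochberg adjustment at 0.05. The procedure was tested on simulated data, with genotype changes larger than any of the 10 genes had across the pairs. That run cannot tell whether differences of their size would be called. Tissue and diet are the block that pairs WT with EC-*Tert*-KO, since 1 library of each genotype comes from each. Within a pair, log2 ratios of a gene used a prior count of 0.5 and exact (Clopper-Pearson) 95% intervals, and 2-fold was the threshold. Changes of a count ratio from WT to EC-*Tert*-KO used no prior count and 95% intervals from a normal approximation on the log scale. Levels per kilobase used the gene length in the table. Named genes were the 10 genes, *Tert*, the 3 constitutive catalytic subunits, partner genes past the test or among *Irf1*, *Rfx5* and *Ciita*, and the 10 genes most like the set's mean. A further regulator in that rule is not reported here. *Malat1*, *Lyz2*, *H2-Q1* and the summed and other ratios were picked after their values were seen. The alternatives were other scalings, filters and prior counts, DESeq2 1.42.0, no block, leaving out libraries or pairs, and removal of the trend on gene length.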

Additional observations from a re-analysis of the deposited data

Results flagged for a closer look

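For 5 genes the difference between EC-*Tert*-KO and WT had opposite directions in pairs that differ in diet or in tissue, with counting intervals off 0 in both. With 1 library per genotype the difference between the pairs was not tested. *Tap1* was at 0.36 in SAT on HFD and -0.79 in SAT on chow, and at 0.36 in VAT and -0.20 in muscle. *Tapbp* was at 0.15 in SAT on HFD and -0.83 in SAT on chow. *H2-D1* was at -0.97 in SAT on chow and -0.48 in muscle against 0.03 in VAT, and *B2m* at -1.19 and -0.39 against 0.06. *Nlrc5* was at 0.94 in SAT on chow and -0.14 in VAT. The VAT value of *H2-D1* changed sign with DESeq2's size factors. With the length trend removed the VAT values of *H2-D1* and *B2m* were -0.02 and -0.10, so the opposite directions were lost, and that of *Tapbp* in SAT on HFD was 0.01. Under that step *Tap1* kept its directions. *Nlrc5* had 0.45 in SAT on chow and only -0.05 in VAT, and no interval was computed after that step. The values in VAT rest on a library whose few *Tert* counts do not bear out its label.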

How the results depend on the processing

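The count of the 10 genes called across the 4 pairs was 0 under each alternative, and so were the counts between muscle and VAT and between the diets. With no filter beyond 1 count, 2 were called among the 4 groups, 1 between VAT and SAT on chow and 1 between muscle and SAT on chow, and DESeq2's Wald test called 2 in the last. Leaving out each library in turn gave 0 to 5, 0 to 5 and 0 to 6 for the same 3 comparisons, with the highest counts without SAT chow EC-*Tert*-KO. Over all genes, no filter beyond 1 count called 3262 among the 4 groups against 1328, and DESeq2 was not run there. For VAT against SAT on chow, muscle against SAT on chow, muscle against VAT, the diets and the genotypes, the counts were 2116, 971, 1166, 289 and 41 with no such filter and 2334, 1014, 1262, 323 and 21 by DESeq2, against 857, 213, 328, 0 and 1. Without a genotype term 542 were called between muscle and VAT and 339 between muscle and SAT on chow. Leaving out either VAT library lowered the count for VAT against SAT on chow to 93 or 104. Removing the length trend moved the SAT chow median of the 10 genes from -1.08 to -0.75. Library totals moved the muscle median from -0.32 to -0.15, and that over all genes from -0.01 to 0.16. Against the 11 other core subunits as denominator, the mean log2 change of the immunoproteasome ratio went from -0.33 to 0.04 in SAT on HFD and from -0.17 to 0.07 in muscle. The cause was not tested. The fit without the tissue and diet block changed no call for the 10 genes. The 10 genes had at least 385 counts in every library, and each pair holds 1 library per genotype.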
